A study of Mus musculus with 9 samples.

Results

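The 35 genes described here encode plasma proteins of blood coagulation, fibrinolysis and complement that the liver makes. They were listed by gene symbol for the known roles of their proteins, and fibrinogen and C3 were left out of the set and are given beside it. All 35 symbols were among the 23420 genes counted, and all 35 passed the filter on low counts that left 13020 genes for testing. RNA sequencing was done on whole liver of 9 wild-type C57BL/6 male mice, 3 per diet. The mice were moved at 5 weeks of age to AIN-93G, a purified soy-free rodent feed, and ate it for 50 days, so that livers were taken at 12 weeks. Iron content in mg per kg of feed was 2.5 for low iron, 37.5 for sufficient iron and 1000 for high iron, and the labels name no other difference between the diets. Each library is 1 mouse, called by its diet and by the number in its title, and per-library values are given in the order replicates 1, 5 and 9 for low iron, 2, 6 and 10 for sufficient iron and 4, 8 and 12 for high iron. The mice were separate animals, and p-values weigh differences between diets against the variation between these 9 libraries that diet does not account for.

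Coagulation is a chain of serine proteases in which each factor cleaves and activates the next, ending with thrombin and the fibrin clot. Fibrinolysis dissolves the clot, and serpins, inhibitors that trap their target protease, hold both in check. Complement is a related set of plasma proteases and pore-forming proteins that mark and lyse microbes, entered through the classical, lectin or alternative pathway and ending in the membrane attack complex. Hepatocytes are the main source of most of these proteins, and several of their genes are known to follow the acute phase response, the shift in liver secretion during inflammation.

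Between 22 M and 33.8 M reads (M for mega) fell in genes in each library, and the lowest count of any of the 35 genes in any library was 449 reads. Levels are given as CPM, counts per M reads on library sizes scaled by TMM, a factor that aligns most genes between libraries. Reads of Rn45s, which encodes precursor ribosomal RNA, made up 40.5% of the total in high-iron replicate 12 and 43.7% in low-iron replicate 1, and 12.5% to 23.8% elsewhere. Liver identity was checked on 8 hepatocyte markers, which were all detected and summed to 77712 to 90328 CPM in low-iron, 62449 to 82795 CPM in sufficient-iron and 56410 to 71169 CPM in high-iron livers. In whole liver, fewer hepatocytes and less RNA per hepatocyte cannot be told apart. Of 13020 tested genes, 2656 had a mean level at or above 40.5 CPM, the lowest mean among the 35 genes, and shares over these abundant genes are given beside those over all genes where they differ.

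As a group, the 35 genes were lowest in high-iron livers, and on TMM-scaled values, though not on unscaled totals, they were highest in low-iron livers. Their summed level was 13144, 13227 and 13688 CPM in low-iron livers, 11368, 11869 and 10966 CPM in sufficient-iron livers and 9378, 9852 and 9189.7 CPM in high-iron livers. The 3 diets did not overlap on this sum. As a share of gene reads without Rn45s and Lars2 and without TMM scaling, the genes took 1.72%, 1.81% and 1.87% in low-iron livers, 1.71%, 1.82% and 1.67% in sufficient-iron livers and 1.42%, 1.43% and 1.46% in high-iron livers. On that scale the high-iron livers still lay below all others, while low-iron and sufficient-iron livers overlapped. The median over the 35 genes of log2 CPM minus the mean of the 9 libraries was 0.07, 0.21 and 0.26 in low-iron livers, -0.01, 0.05 and -0.04 in sufficient-iron livers and -0.23, -0.16 and -0.29 in high-iron livers.

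**Figure D1:**
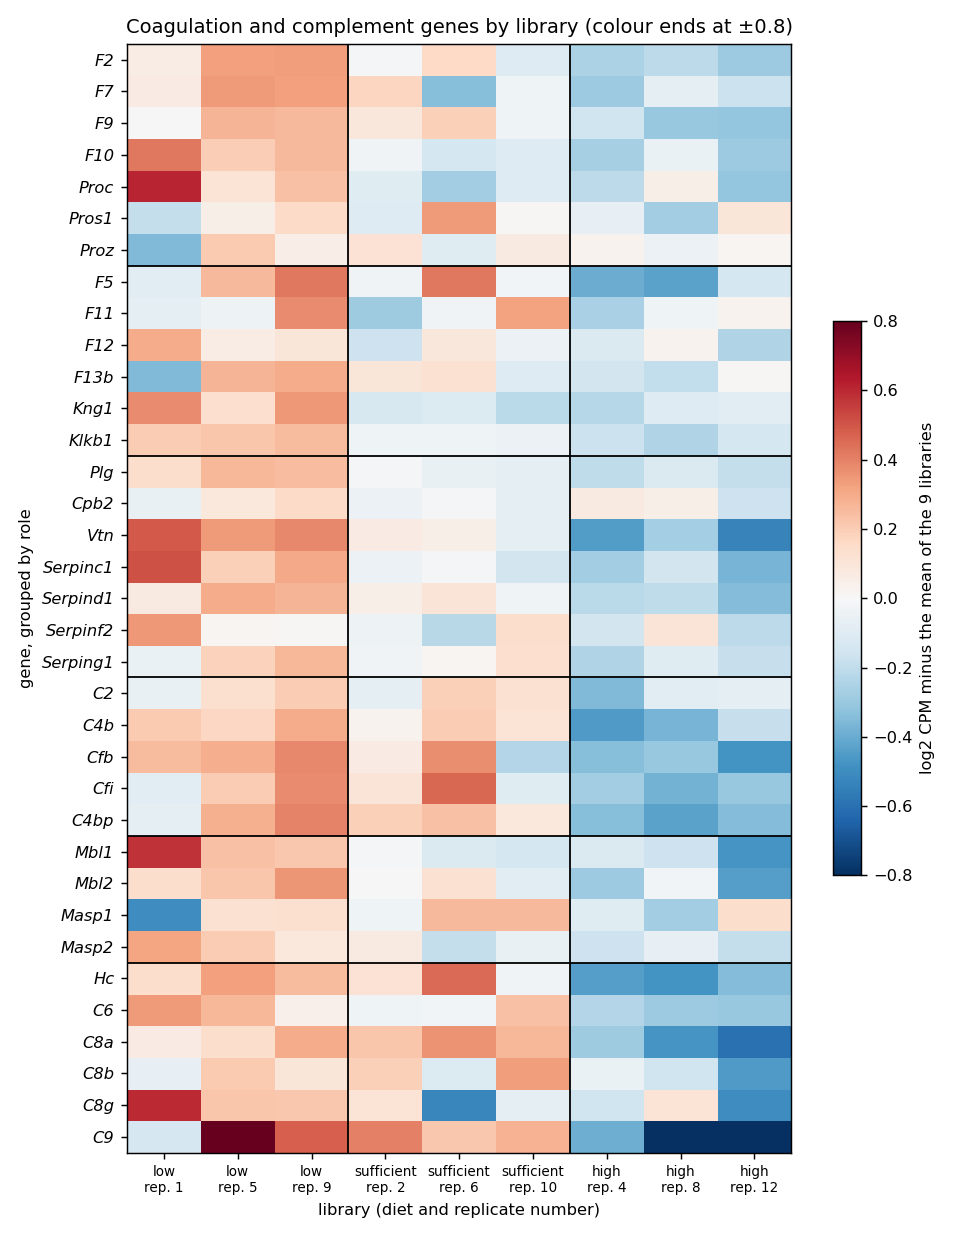
Each cell is log2 CPM of a gene (rows, grouped by role) in a library (columns, grouped by diet) minus that gene's mean over the 9 libraries, with red higher and blue lower. The 3 high-iron columns are mostly blue and the low-iron columns mostly red, and 3 values, all of C9, lie beyond the colour limit of 0.8.

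Genes were compared per kilobase of the longest annotated principal transcript, a scale that depends on the annotated length. On it Vtn (502 CPM per kb), Kng1 (501), F2 (405), Plg (402) and Serpinc1 (225) had the highest mean levels over the 9 libraries. Serpinc1, with an annotated length of 4970 bases, had the highest mean without division by length (1119 CPM). Masp1 (9.39 CPM per kb), Pros1 (13), C2 (17.6), F11 (18.1) and F7 (22.1) had the lowest. Spread between mice of 1 diet was mostly small. The coefficient of variation of CPM had a median over the 35 genes of 10.4% in low-iron, 7.75% in sufficient-iron and 8.9% in high-iron livers, and the extremes were 0.441% for Klkb1 in sufficient-iron livers and 34.3% for C9 in low-iron livers. The median biological coefficient of variation in the fitted model was 0.132 for the 35 genes and 0.156 for all tested genes.

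The high-iron diet was set against the sufficient-iron diet to describe dietary iron excess. Of the 35 genes, 1 passed an adjusted p of 0.05 by edgeR's quasi-likelihood test, C8a, which fell; 0.115% of all tested genes fell and 0.215% changed in either direction. A further 12 genes had an unadjusted p under 0.05 and, with C8a, all 13 had lower values in high-iron livers, against 5.12% of all genes and 6.63% of abundant genes. Log2 fold changes were negative for 32 of the 35 genes (51.9% of all genes, 49.1% of abundant genes), with a median of -0.22, against -0.01 over all tested genes. The 3 high-iron livers lay below all 3 sufficient-iron livers for 18 genes, as they did for 8.85% of all genes and 11.4% of abundant genes. Proc, Kng1 and Cpb2 were the 3 genes with values at or above 0 (0.01, 0.02 and 0.03). The call of C8a was lost, with 0 of the 35 genes called, when any library other than low-iron replicate 1 was left out. Its adjusted p was then 0.0837 without low-iron replicate 5, 0.0762 without low-iron replicate 9, 0.105 without sufficient-iron replicate 2, 0.113 without sufficient-iron replicate 6, 0.115 without sufficient-iron replicate 10, 0.103 without high-iron replicate 4, 0.261 without high-iron replicate 8 and 0.189 without high-iron replicate 12. Without low-iron replicate 1, 3 genes were called (C8a, C9 and C4bp), and 0.423% of all genes. DESeq2 called 6 genes, C8a, Hc, C9, C4bp, C4b and Vtn, all lower in high-iron livers, and 1.65% of all genes.

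The low-iron diet was set against the sufficient-iron diet to describe iron deficiency. No gene of the 35, and 0 of all 13020 genes, passed an adjusted p of 0.05 by edgeR, a share of 0%. At an unadjusted p under 0.05 there were 1458 genes in all (11.2%), and 10 of the 35, all with higher values in low-iron livers, against 5.79% of all genes and 13.6% of abundant genes. Log2 fold changes were positive for 30 of the 35 genes, against 49.4% of all and 65.4% of abundant genes, and their median was 0.17, which turned to -0.01 on unscaled totals. The 3 low-iron livers lay above all 3 sufficient-iron livers for 11 genes (8.81% of all genes, 17.7% of abundant genes). DESeq2 called 8 genes, F10, Klkb1, Kng1, Mbl1, Plg, Proc, Serpinc1 and Vtn, all higher in low-iron livers, and 0.806% of all genes. It gave no adjusted p to F7, F11, Pros1, C2, Masp1 and Masp2 here. The share is over all 13020 genes, including any without an adjusted p, so that it understates the share among genes that could be called. Limma-voom with or without sample quality weights called 0 of the 35 and 0 of all genes. With library sizes taken as the total of gene reads without Rn45s and Lars2 and no further scaling, a setting chosen after the data were seen, the median of all genes was -0.17, and 18 of the 35 genes had negative values. The log2 fold changes of F10, Kng1, Serpinc1, Mbl1 and Plg, given under TMM scaling with their roles, were 0.21, 0.27, 0.23, 0.27 and 0.09 on that total. Relative to the median of all genes the 35 genes were 0.17 higher under TMM and 0.16 higher on that unscaled total. The 35 genes are all abundant genes, of which 65.4% had positive values under TMM, and no median over abundant genes was taken.

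High-iron livers were then set against low-iron livers, the widest span of dietary iron. Vtn fell and was the 1 gene of the 35 to pass an adjusted p of 0.05, against 0.346% of all tested genes that fell and 0.507% that changed in either direction. At an unadjusted p under 0.05, 25 of the 35 genes had lower values in high-iron livers, against 5.44% of all genes and 12.5% of abundant genes. All but Proz had negative log2 fold changes (34 of 35, 51.2% of all and 66.5% of abundant genes), with a median of -0.47. The 3 high-iron livers lay below all 3 low-iron livers for 27 genes (8.15% of all genes, 16.8% of abundant genes). DESeq2 called 18 of the 35 genes (2.8% of all genes) and limma-voom with sample quality weights 21 (2.81%), all lower in high-iron livers. The 3 comparisons share libraries: high-iron and low-iron livers were both set against the same sufficient-iron livers and then against each other.

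On TMM-scaled CPM, the means of 27 of the 35 genes fell with each step of iron content across the 3 diets. So did those of 15.5% of all tested genes and 23.8% of abundant genes. For Klkb1, Plg, Vtn and Serpinc1, no library of any diet overlapped another diet in that order, which held for 0.307% of all genes. On unscaled totals, 18 of the 35 genes had negative log2 fold changes of low against sufficient iron. Neither the order of means nor the overlap was examined on that scale. A fitted trend with log10 of dietary iron called Vtn among the 35 genes, against 0.307% of all genes in either direction and 0.2% with a falling trend. Its slope was -0.31 ± 0.04 log2 units per 10-fold of dietary iron (SE, adjusted p = 0.0289). The test for any difference among the 3 diets also called Vtn (adjusted p = 0.0490), a call lost in 11 of 19 alternatives, with 0.215% of all genes past the threshold, and 24 of the 35 and 10.7% of all genes had an unadjusted p under 0.05 in it.

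**Figure D2:**
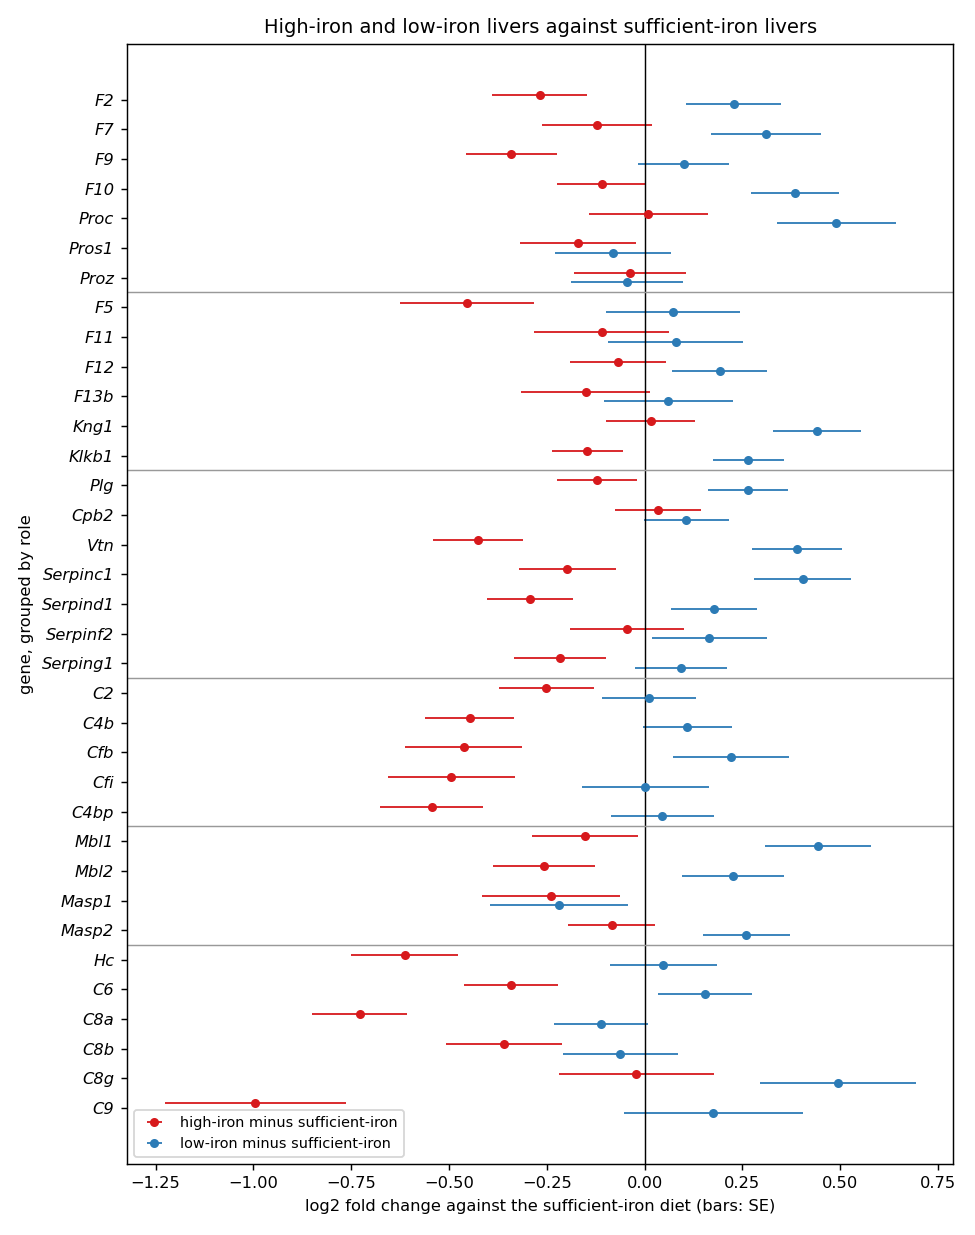
Points are log2 fold changes of each gene against sufficient-iron livers, with high iron in red above low iron in blue and bars of 1 SE. Red points lie left of 0 for 32 of 35 genes and blue points right of 0 for 30 of 35 under TMM scaling, though 18 of 35 genes have negative values on unscaled totals, and red points of the terminal complement group reach -0.996 (C9).

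The 7 vitamin K-dependent genes, proteases and cofactors whose proteins need gamma-carboxylated glutamates to bind membranes, included no call in any comparison. F2, which encodes prothrombin, had 828, 996 and 1001 CPM in low-iron livers, 786, 886 and 740.1 CPM in sufficient-iron livers and 666, 687 and 650.0 CPM in high-iron livers. High-iron livers lay below both other diets, with log2 fold changes of -0.27 ± 0.12 against sufficient iron (SE, adjusted p = 0.540) and -0.50 ± 0.12 against low iron (adjusted p = 0.121). F10, the protease that cleaves prothrombin, had 257, 219.7 and 229 CPM in low-iron livers, 188, 174 and 179 CPM in sufficient-iron livers and 159, 185 and 157 CPM in high-iron livers. Here the low-iron livers stood above both other diets (0.38 ± 0.11 against sufficient iron, adjusted p = 0.446), and sufficient-iron and high-iron livers overlapped. Proc, the protein C gene, whose active protease inactivates factors V and VIII, had a like order, with 348, 246 and 268 CPM in low-iron livers, 213, 188 and 213 CPM in sufficient-iron livers and 198, 236 and 184 CPM in high-iron livers. Its log2 fold change in low-iron against sufficient-iron livers was 0.49 ± 0.15 (adjusted p = 0.446), and low-iron replicate 1 was the highest library. Without that library it was 0.32, and on unscaled totals 0.31. F9, which activates factor X together with factor VIII, averaged 163 ± 17.1 CPM in low-iron, 152 ± 11.8 CPM in sufficient-iron and 120.3 ± 7.13 CPM in high-iron livers (SD, n = 3 each), and its high-iron livers lay below all others. F7, which starts coagulation with tissue factor, averaged 48.2 ± 5.02, 39.0 ± 6.81 and 35.8 ± 2.7 CPM in low-iron, sufficient-iron and high-iron livers, with overlap between neighbouring diets. Pros1, the cofactor of protein C, and Proz, the cofactor of a serpin that inhibits factor X, overlapped in all 3 comparisons, and their log2 fold changes lay between -0.17 and 0.01.

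Among the 6 other coagulation and contact system genes there was no call either. Kng1, the kininogen gene, had 1176, 993 and 1149 CPM in low-iron livers, 827, 838 and 780.0 CPM in sufficient-iron livers and 774, 844 and 855 CPM in high-iron livers. Low-iron livers were above all others (0.44 ± 0.11 against sufficient iron, adjusted p = 0.446), whereas high-iron livers overlapped sufficient-iron livers (0.02 ± 0.11, adjusted p = 0.973). Klkb1 encodes plasma prekallikrein, the protease that releases bradykinin from kininogen. It had 140.0, 142 and 145 CPM in low-iron livers, 118, 119 and 118 CPM in sufficient-iron livers and 108, 103 and 110.2 CPM in high-iron livers. Its differences were small but the diets stood apart, with log2 fold changes of -0.15 ± 0.09 for high against sufficient iron (adjusted p = 0.634), 0.27 ± 0.09 for low against sufficient iron (0.446; 0.09 on unscaled totals) and -0.41 ± 0.09 for high against low iron (0.0863). F5, the cofactor of factor X, averaged 384 ± 66.9 CPM in low-iron, 365 ± 68.3 CPM in sufficient-iron and 266 ± 30.1 CPM in high-iron livers (SD, n = 3 each), and its high-iron livers lay below all others. F12, the contact factor, F11, which activates factor IX, and F13b, the carrier subunit of the fibrin-crosslinking enzyme, had log2 fold changes from -0.15 to -0.07 in high-iron against sufficient-iron livers and from 0.06 to 0.19 in low-iron against sufficient-iron livers, and each overlapped in both comparisons.

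Of the 7 fibrinolysis and serpin genes, 6 had means that fell with each step of dietary iron on TMM-scaled CPM. On the same scale, 3 were apart in all 3 diets. Vtn encodes vitronectin, which stabilises the plasminogen activator inhibitor and also binds terminal complement complexes. It had 1196, 1077 and 1109.7 CPM in low-iron livers, 893, 882 and 807 CPM in sufficient-iron livers and 625, 707 and 589 CPM in high-iron livers. No diet overlapped another, and the log2 steps were 0.39 ± 0.12 for low against sufficient iron (SE, adjusted p = 0.446; 0.22 on unscaled totals) and -0.43 ± 0.12 for high against sufficient iron (adjusted p = 0.245). High-iron livers fell by 0.82 ± 0.12 on the log2 scale relative to low-iron livers (adjusted p = 0.0191). That call was lost, at an adjusted p of 0.0511 without low-iron replicate 5, 0.0804 without low-iron replicate 9, 0.118 without high-iron replicate 4, 0.0855 without high-iron replicate 8 and 0.114 without high-iron replicate 12, and with it 0 of the 35 genes were called in those fits. Without low-iron replicate 1, 4 genes were called (Vtn, C8a, C9 and C4bp, with 0.801% of all genes), and without sufficient-iron replicate 6, 3 genes (Vtn, Cfb and Hc, with 0.855% of all genes). The trend of Vtn lost its call without the same libraries (adjusted p = 0.0687, 0.0984, 0.152, 0.0675 and 0.165), and the test over the 3 diets without any library except low-iron replicate 1 or sufficient-iron replicate 6 (0.0700 to 0.230).

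Serpinc1 encodes antithrombin, the main inhibitor of thrombin and factor X. It had 1564, 1253 and 1355 CPM in low-iron livers, 1064, 1093 and 995 CPM in sufficient-iron livers and 906, 993 and 849 CPM in high-iron livers. The diets did not overlap, though high-iron replicate 8 and sufficient-iron replicate 10 were within 2 CPM, and the log2 fold changes were 0.40 ± 0.12 for low against sufficient iron (adjusted p = 0.446) and -0.60 ± 0.12 for high against low iron (adjusted p = 0.0665). Plg, the plasminogen gene, had 1212, 1324 and 1305 CPM in low-iron livers, 1093, 1058 and 1048 CPM in sufficient-iron livers and 957, 1018 and 965 CPM in high-iron livers, again apart in each diet. Its log2 fold change was 0.26 ± 0.10 for low against sufficient iron (adjusted p = 0.446), or 0.09 on unscaled totals. For high against low iron it was -0.39 ± 0.10 (adjusted p = 0.163). Serpind1, heparin cofactor II, which inhibits thrombin, and Serping1, the inhibitor of complement C1 and of kallikrein, had high-iron livers below all others. Serpind1 averaged 391 ± 32.8 CPM in low-iron, 346 ± 15.9 CPM in sufficient-iron and 282 ± 15.5 CPM in high-iron livers, and Serping1 419 ± 46.9, 393 ± 23.6 and 338 ± 16.5 CPM in the same diets (SD, n = 3 each). Cpb2, a carboxypeptidase that slows fibrinolysis, and Serpinf2, the plasmin inhibitor, overlapped in all 3 comparisons, with log2 fold changes of high against low iron of -0.07 and -0.21.

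Promoter sequence is printed for Vtn and Serpinc1, of the 4 genes of which no diet overlapped another those with the lowest p in the 3-group test, from RefSeq on build GRCm38.p6. Each window runs from 250 bases before to 30 bases after the annotated start on the gene's own strand. Both genes are on the plus strand, Vtn at chr11:78498870-78499149 and Serpinc1 at chr1:160978333-160978612. Capitals mark matches, on either strand, to 1 of 6 motifs known from liver promoters, searched as exact letters with N for any base: the HNF1 site GTTAAT with NN and TT after it, the HNF4 site CAAAGTCCA, the C/EBP site TTGCNNAA, the STAT site TTCNNNGAA, the interferon-stimulated element GAAA with NN and GAAA after it, and the TATA box TATAAA.
Vtn: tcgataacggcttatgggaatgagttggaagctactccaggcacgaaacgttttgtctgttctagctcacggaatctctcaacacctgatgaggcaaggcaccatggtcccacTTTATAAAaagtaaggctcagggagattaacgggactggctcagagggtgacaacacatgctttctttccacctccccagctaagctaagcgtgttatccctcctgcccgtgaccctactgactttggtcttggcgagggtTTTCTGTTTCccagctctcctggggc
Serpinc1: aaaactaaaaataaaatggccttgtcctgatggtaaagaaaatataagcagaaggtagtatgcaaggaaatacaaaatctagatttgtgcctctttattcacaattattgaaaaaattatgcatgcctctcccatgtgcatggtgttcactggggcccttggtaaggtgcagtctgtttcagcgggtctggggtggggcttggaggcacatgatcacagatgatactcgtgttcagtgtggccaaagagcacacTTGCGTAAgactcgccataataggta
In Vtn the capitals are TATA letters at bases -137 and -135, overlapping on opposite strands, and the interferon-stimulated element from base 5, and in Serpinc1 a C/EBP match from base 5, counted from the annotated start. RefSeq windows were matched for 26 of the 35 genes and for 27025 genes in all. The C/EBP letters were in 6 of the 26 (23.1%, 11.7% of all genes), the STAT letters in 4 (15.4%, 9.04%), the HNF1 letters in 3 (11.5%, 1.18%), the TATA letters in 3 (11.5%, 15.1%), the interferon-stimulated element in 1 (3.85%, 3.8%) and the HNF4 letters in 0 (0.533%). A match is a description of the letters and was not tested as a binding site.

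In the 5 genes of the classical and alternative pathways and their regulators, high-iron livers stood apart from those of the other 2 diets. A difference in size between the 2 steps was not shown. In the contrast of high plus low minus 2 times sufficient iron, 0 of 5 had an unadjusted p under 0.05 (10.3% of all genes). High-iron livers were below all sufficient-iron and all low-iron livers for 5 of 5 genes, as they were for 18 of the 35 genes, 2.88% of all genes and 5.87% of abundant genes, and 4 of 5 had an unadjusted p under 0.05 against sufficient iron, while low-iron and sufficient-iron livers overlapped for 5 of 5. None passed the adjusted threshold in the reported fit. C4bp encodes the binding protein that disarms C4b, and had 322, 413 and 447 CPM in low-iron livers, 387, 399 and 359.9 CPM in sufficient-iron livers and 268, 252 and 266 CPM in high-iron livers. Its log2 fold change was -0.54 ± 0.13 against sufficient iron (adjusted p = 0.182) and 0.05 ± 0.13 for low against sufficient iron (adjusted p = 0.894). C4b, which carries the classical and lectin cascades on to C3, had 510.1, 494 and 541 CPM in low-iron livers, 449, 507 and 476 CPM in sufficient-iron livers and 323, 340.1 and 389 CPM in high-iron livers. The log2 fold change of C4b in high-iron livers was -0.45 ± 0.11 against sufficient iron (adjusted p = 0.205) and -0.56 ± 0.11 against low iron (adjusted p = 0.0661). Cfb, the protease of the alternative pathway convertase, averaged 588 ± 27.6 CPM in low-iron, 504 ± 105 CPM in sufficient-iron and 366 ± 22.9 CPM in high-iron livers. Cfi, the protease that degrades C3b and C4b, averaged 315 ± 50.0, 314 ± 62.9 and 223 ± 8.18 CPM in the same diets, and C2, the protease of the classical convertase, 49.3 ± 4.6, 48.9 ± 4.5 and 41.2 ± 4.34 CPM (SD, n = 3 each).

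Of the 4 lectin pathway genes, 3 had low-iron livers above all others, as did 11 of the 35 genes, 2.58% of all genes and 6.63% of abundant genes, and 0 were called. Mbl1, a mannose-binding lectin gene, had 162, 128 and 125 CPM in low-iron livers, 107, 99.8 and 98.0 CPM in sufficient-iron livers and 99.6, 96.5 and 77.9 CPM in high-iron livers. Low-iron livers lay above all others (0.44 ± 0.14 against sufficient iron, adjusted p = 0.446), and low-iron replicate 1 stood well above the other 2. Mbl2, the second mannose-binding lectin gene, averaged 279 ± 20.7, 239 ± 17.2 and 199.8 ± 29.6 CPM in low-iron, sufficient-iron and high-iron livers, and Masp2, the protease that cleaves C4 and C2, 104 ± 8.28, 86.6 ± 8.0 and 81.7 ± 3.76 CPM (SD, n = 3 each). For both, on TMM-scaled CPM, low-iron livers lay above all others and high-iron livers overlapped sufficient-iron livers. Log2 fold changes of low against sufficient iron were 0.23 for Mbl2 and 0.26 for Masp2, but 0.06 and 0.09 on unscaled totals. Masp1, the protease that activates Masp2, overlapped in all 3 comparisons, and sufficient-iron livers had its highest mean (47.7 ± 11, 55.7 ± 6.38 and 47.2 ± 6.87 CPM in low-iron, sufficient-iron and high-iron livers).

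The 6 terminal complement genes, whose products assemble the membrane attack complex, had a median log2 fold change of -0.49 in high-iron against sufficient-iron livers, and 5 of 6 had an unadjusted p under 0.05. C8a, the alpha chain of C8, had 338, 355 and 396 CPM in low-iron livers, 376, 414 and 387 CPM in sufficient-iron livers and 265, 232 and 213 CPM in high-iron livers. High-iron livers lay below all others and low-iron livers overlapped sufficient-iron livers. C8a fell by 0.73 ± 0.12 on the log2 scale in high-iron relative to sufficient-iron livers (SE, adjusted p = 0.0479), and its log2 fold change against low iron was -0.62 ± 0.12 (adjusted p = 0.0544). Hc, the gene of complement C5, had 463, 528 and 500.3 CPM in low-iron livers, 455, 576 and 413 CPM in sufficient-iron livers and 310.4, 302 and 331 CPM in high-iron livers. The 3 high-iron values lay close together and below all others (-0.61 ± 0.14 against sufficient iron, adjusted p = 0.134). C9, which polymerises to form the pore, had 161, 329.9 and 246 CPM in low-iron livers, 234, 205 and 214 CPM in sufficient-iron livers and 135, 95.3 and 97.6 CPM in high-iron livers. Its log2 fold change had the largest size of the 35 genes in both comparisons of high-iron livers, -0.996 ± 0.23 against sufficient iron (adjusted p = 0.163) and -1.17 ± 0.23 against low iron (adjusted p = 0.0587), and low-iron replicate 1 was the lowest of the 6 libraries of the other diets.

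C6, which joins the complex after C5, averaged 172 ± 18.2 CPM in low-iron, 154 ± 16.9 CPM in sufficient-iron and 122 ± 3.1 CPM in high-iron livers, with high-iron livers below all others. C8b, the beta chain, averaged 110.5 ± 10.4, 115 ± 17.5 and 89.9 ± 12.5 CPM in the same diets and overlapped in all 3 comparisons. C8g encodes the gamma chain, a lipocalin bound to the alpha chain, and had 332, 255 and 255 CPM in low-iron livers, 237, 152 and 208 CPM in sufficient-iron livers and 196, 236 and 155 CPM in high-iron livers. The 3 chains of C8 thus had unlike log2 fold changes of high against sufficient iron, -0.73 ± 0.12 for C8a, -0.36 ± 0.15 for C8b and -0.02 ± 0.20 for C8g, although the difference between them was not tested. C8a and C8b are neighbours on chromosome 4, 11130 bases apart.

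Promoter windows of C8a, Hc and C9 are printed as the terminal complement genes with the lowest p in high-iron against sufficient-iron livers, in the same form. C8a lies on the minus strand at chr4:104876369-104876648, Hc on the minus strand at chr2:35061383-35061662 and C9 on the plus strand at chr15:6445096-6445375.
C8a: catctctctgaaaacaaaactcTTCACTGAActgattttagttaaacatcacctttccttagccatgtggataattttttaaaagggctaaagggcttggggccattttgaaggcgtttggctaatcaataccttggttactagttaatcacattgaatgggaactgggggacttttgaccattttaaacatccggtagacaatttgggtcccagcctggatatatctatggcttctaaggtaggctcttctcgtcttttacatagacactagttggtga
Hc: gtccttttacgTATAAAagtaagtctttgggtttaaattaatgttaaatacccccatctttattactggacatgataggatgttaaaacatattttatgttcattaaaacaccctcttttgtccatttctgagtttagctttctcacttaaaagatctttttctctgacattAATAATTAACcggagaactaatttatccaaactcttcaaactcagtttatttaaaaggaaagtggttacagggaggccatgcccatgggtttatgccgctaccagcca
C9: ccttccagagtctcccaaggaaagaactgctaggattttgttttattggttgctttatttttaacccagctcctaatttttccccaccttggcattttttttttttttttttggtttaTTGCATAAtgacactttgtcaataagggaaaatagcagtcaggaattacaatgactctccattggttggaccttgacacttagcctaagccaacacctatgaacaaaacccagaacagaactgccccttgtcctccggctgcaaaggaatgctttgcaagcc
The capitals mark a STAT match from base -228 in C8a, a TATA match from base -239 and an HNF1 match from base -78 in Hc, and a C/EBP match from base -132 in C9. No 2 of these 3 windows share a motif of the 6 searched.

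**Figure D3:**
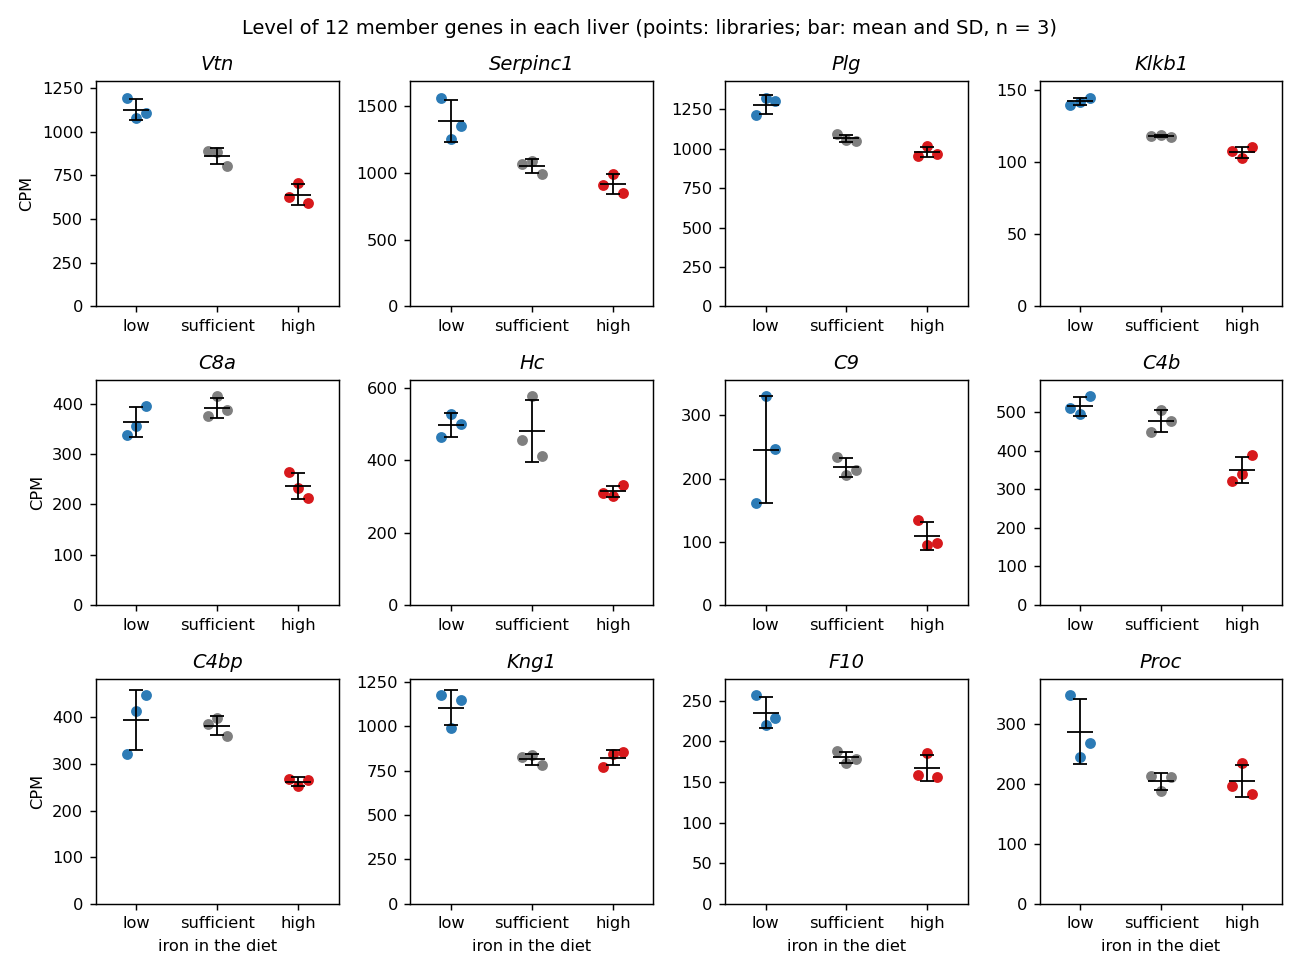
Points are CPM of 12 of the genes in each library, by diet, with the mean and SD of the 3 libraries as bars and axes starting at 0. On this TMM-scaled CPM, Vtn, Serpinc1, Plg and Klkb1 step down at each diet. For C8a, Hc, C9, C4b and C4bp, high-iron points lie below those of the other diets, which overlap. For Kng1, F10 and Proc, low-iron points lie above those of the other diets, which overlap. No gene passed the adjusted threshold for a difference in size between the steps.

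Whether the high-iron step and the low-iron step of a gene differ in size was tested with the contrast of high plus low minus 2 times sufficient iron, chosen after the data were seen. No gene of the 35, and 0 of 13020, passed an adjusted p of 0.05, while 3 of the 35 and 10.3% of all genes had an unadjusted p under 0.05. The 3 were C8a (-0.84 ± 0.20, adjusted p = 0.422) and Hc (-0.57 ± 0.23, adjusted p = 0.483), with the lower values in high-iron livers, and Kng1 (0.46 ± 0.20, adjusted p = 0.483), with the higher values in low-iron livers.

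**Figure D4:**
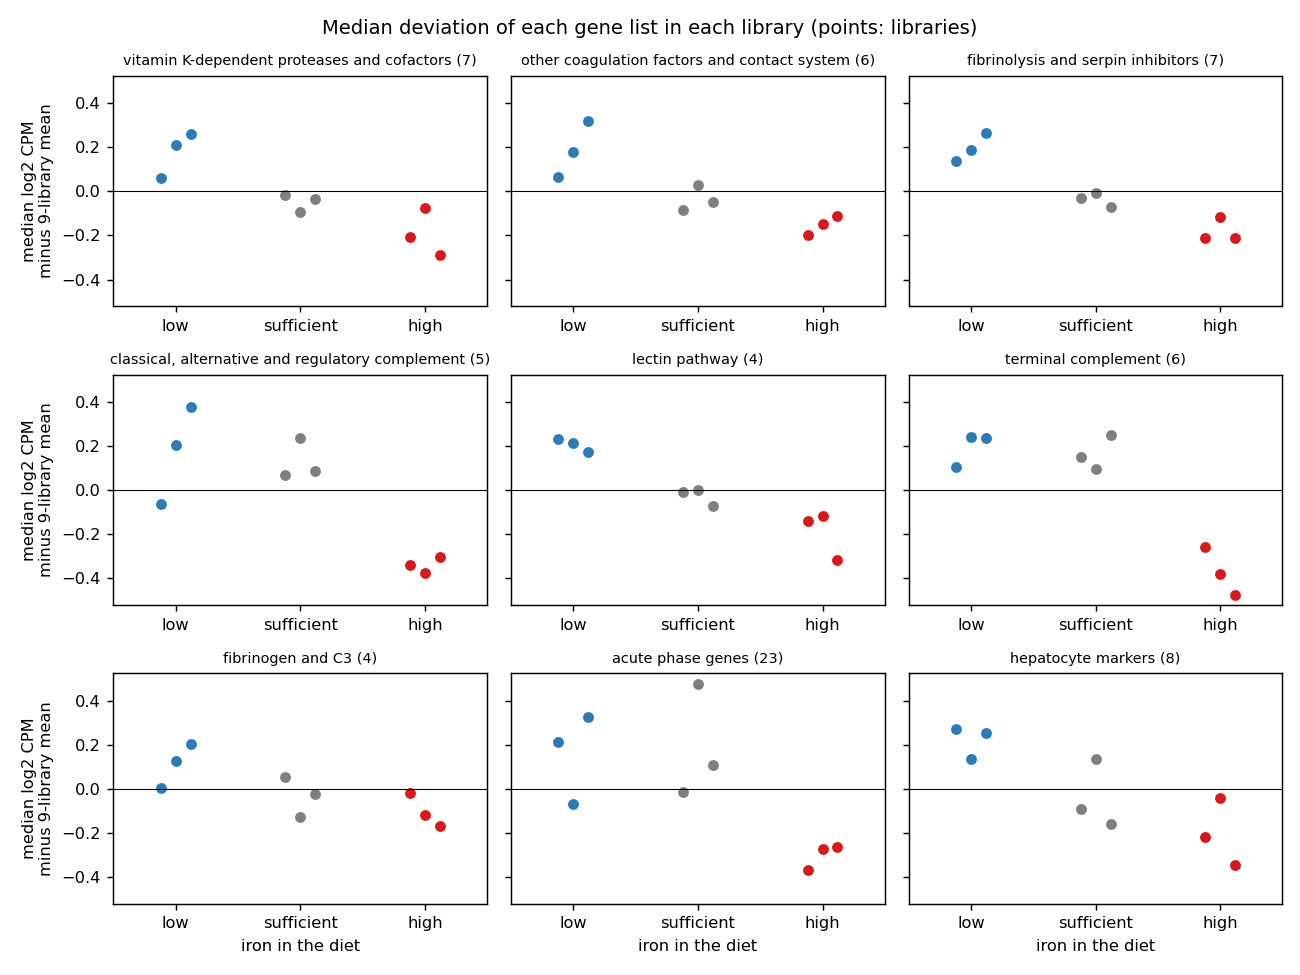
Points are the median, over the genes of a list, of log2 CPM minus the 9-library mean in each library, by diet, with the number of genes in brackets. High-iron points of the classical, alternative and regulatory complement list and of the terminal complement list lie between -0.47 and -0.26. Those of the lectin pathway list lie between -0.32 and -0.12. Those of fibrinogen and C3 lie between -0.17 and -0.02, as medians over the fibrinogen genes with C3 that do not show C3 by itself.

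Of the liver genes next to the set, fibrinogen had small differences and C3 had differences of the size of those of the complement genes. Log2 fold changes of high against sufficient iron were -0.05 ± 0.11 for Fga, 0.00 ± 0.11 for Fgb and -0.09 ± 0.13 for Fgg, the 3 fibrinogen chains (adjusted p = 0.892, 0.998 and 0.812). C3, the central complement protein, had 2218, 3543 and 2930.3 CPM in low-iron livers, 2504, 3364 and 2037 CPM in sufficient-iron livers and 1699, 1843 and 1796 CPM in high-iron livers. High-iron livers lay below all others for C3 (-0.57 ± 0.21 against sufficient iron, adjusted p = 0.456, and -0.70 ± 0.21 against low iron, adjusted p = 0.207), and low-iron livers overlapped sufficient-iron livers.

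The wider coagulation and complement lists held no call. Of 21 tested other coagulation and fibrinolysis genes, 0 passed in any pairwise comparison, and their median log2 fold change was -0.15 for high against sufficient iron and -0.27 for high against low iron. Fgl1, a fibrinogen-like protein secreted by hepatocytes, had a log2 fold change of -1.0 ± 0.19 in high-iron against sufficient-iron livers (adjusted p = 0.0760), and Habp2, a plasma protease that activates factor VII, -0.41 ± 0.10 against low iron (adjusted p = 0.129). Among 27 tested other complement genes 0 passed. Their median log2 fold change was -0.20 for high against sufficient iron (20 negative, 7 positive) and -0.20 for high against low iron (19 negative, 8 positive). At an unadjusted p under 0.05 in high against sufficient iron, 1 was higher and 0 were lower (4.16% and 5.12% of all genes). Clu, the clusterin gene, whose protein binds terminal complexes, had -0.46 ± 0.10 in high-iron against low-iron livers (adjusted p = 0.0890). The 7 genes of the vitamin K cycle, which regenerate the cofactor of gamma-carboxylation, summed to 278 to 321 CPM in low-iron, 261 to 280.3 CPM in sufficient-iron and 269 to 290.2 CPM in high-iron livers, with 0 called. Of 16 transcription factors of hepatocytes 0 were called. In high against sufficient iron their median log2 fold change was 0.08, with 9 positive and 7 negative. At an unadjusted p under 0.05, 1 was higher and 1 lower (4.16% and 5.12% of all genes). The lowest p in that comparison was that of Stat3, the factor downstream of interleukin 6 (-0.40 ± 0.09, adjusted p = 0.170).

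Of 23 acute phase genes, 2 fell in high-iron against low-iron livers, Crp (C-reactive protein, -0.67 ± 0.11, adjusted p = 0.0290) and Itih4 (an inter-alpha-trypsin inhibitor heavy chain, -1.03 ± 0.17, adjusted p = 0.0328), and 20 of 23 had negative values, with a median of -0.51. In high-iron against sufficient-iron livers 0 were called, 21 of 23 were negative and the median was -0.49. In low-iron against sufficient-iron livers 0 were called, 12 of 23 were negative and the median was -0.03, beside 30 of 35 positive values and a median of 0.17 for the 35 genes under TMM scaling, which was -0.01 on unscaled totals. The hepatocyte markers were also lower in high-iron than in low-iron livers (8 of 8 negative, median -0.48, 0 called). Against sufficient iron they were mixed, with 5 negative and 3 positive, from -0.45 to 0.44, and a median of -0.15. In low-iron against sufficient-iron livers 8 of 8 hepatocyte markers had positive values, with a median of 0.36 and 0 called. Markers of erythroid cells and blood followed the same order, with sums of 139 to 162 CPM in low-iron, 85.5 to 120.5 CPM in sufficient-iron and 44.7 to 59.2 CPM in high-iron livers, with 2 of 7 tested, Alas2 of heme synthesis falling in high-iron livers against both other diets, and Hba-a1, Hba-a2, Hbb-b1 and Hbb-b2 under 1 CPM. Kupffer cell markers, 8 of 8 detected, summed to 91.0 to 222 CPM in low-iron, 215 to 359.9 CPM in sufficient-iron and 187 to 241 CPM in high-iron livers, so that they did not follow the order of the 35 genes. Markers of sinusoidal endothelial cells, stellate cells and cholangiocytes had medians of 0.19, 0.17 and 0.69 in high-iron against low-iron livers, with 0 called, and Krt7, Krt19 and Epcam of the cholangiocyte list under 1 CPM. In low-iron against sufficient-iron livers the medians of these 3 lists were -0.31, -0.32 and -0.54, with 7 of 7, 7 of 7 and 4 of 5 negative. Kupffer cell markers had a median of -0.81 in that comparison, with 8 of 8 negative, and 0 were called in any of these lists. Of 30 interferon response genes, 30 had negative values in high-iron against sufficient-iron livers, with a median of -0.81, and 2 fell, Rsad2 (-1.94 ± 0.27, adjusted p = 0.0314) and Cmpk2 (-1.31 ± 0.20, adjusted p = 0.0341). The same list had a median of -0.59 in low-iron against sufficient-iron livers, with 29 of 30 negative and 0 called. Neutrophil and monocyte markers, 5 of 6 tested and S100a8 and S100a9 under 1 CPM, had medians of -0.58 in high-iron and -0.86 in low-iron against sufficient-iron livers, with 0 called. The part of these lists in the differences of the 35 genes was not tested.

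**Figure D5:**
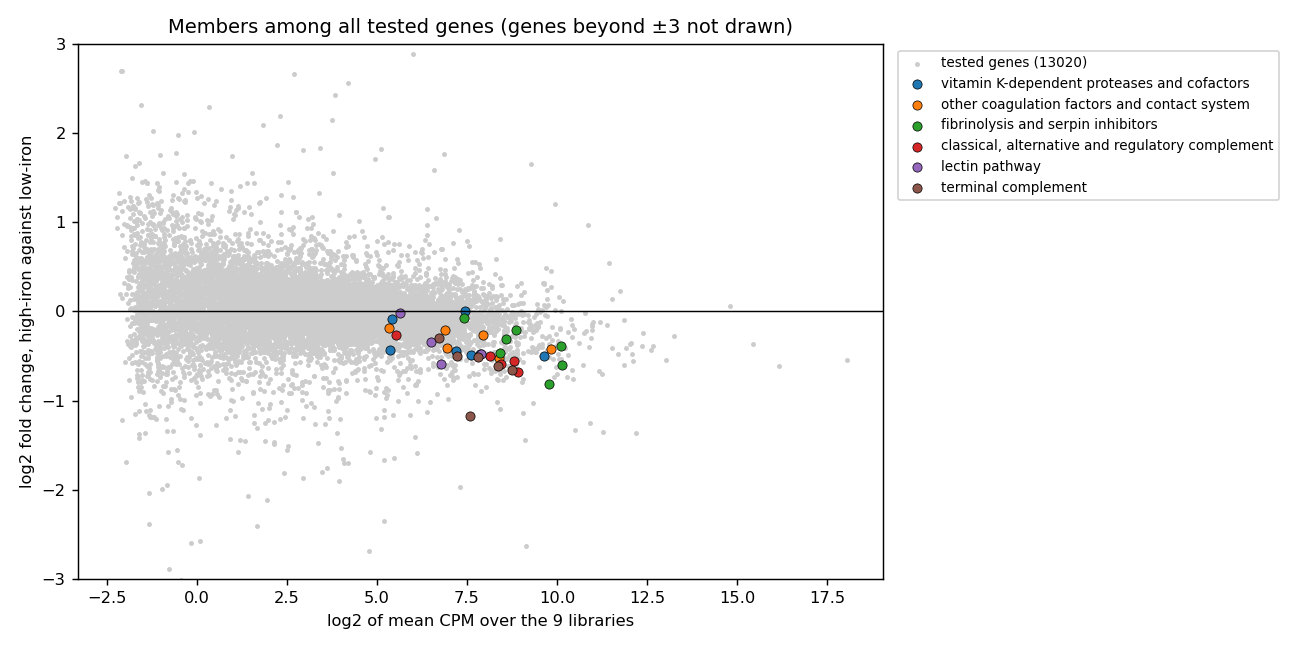
Points are tested genes by log2 of mean CPM over the 9 libraries and log2 fold change of high against low iron, with the 35 genes coloured by role and 7 genes beyond the axis limit of 3 not drawn. The 35 coloured points lie among the more abundant genes, 34 of them below 0, with Vtn at -0.82 and C9 at -1.17.

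Some counts carry a limit of their own. Ambiguous and not uniquely aligned reads were set apart from the gene counts, and how strand was handled is not given in the sources used here. C4b and C4a, Kng1 and Kng2, and C4bp and its pseudogene are close copies, so that their counts are uncertain. Exons of Masp2 overlap those of Tardbp on the opposite strand over 54.9% of their length, those of Serpinc1 overlap Zbtb37 over 34.4% and those of Plg overlap Slc22a3 over 11.3%, and reads there cannot be told apart without strand.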

How the data were processed

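RNA was extracted from liver with RNeasy Mini columns, and TruSeq RNA libraries were sequenced on an Illumina instrument, per the labels' protocols. The authors deposited raw read counts per gene symbol, 1 table per library. Per the submitters' processing notes, FastQC was used, and both mm10 and mm9 are named as builds. Which aligner and counter were run, and with which strand option, is not given in the sources used here. Of each table, 5 category entries, in which reads outside genes were 13.4% to 25.9% and ambiguous reads 0.477% to 0.917% of unique reads, beside 27.5 M to 55 M alignments that were not unique, stayed out of library sizes and tests.

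Counts were filtered with filterByExpr (minimum count 10), scaled by TMM and fitted in edgeR 4.0.16 (R 4.3.3) with a robust quasi-likelihood model with a term for diet and no other, fitted to the 9 libraries together, and a second model with log10 dietary iron. The Benjamini-Hochberg adjustment ran over 13020 genes, with a threshold of 0.05. SE is the log2 fold change divided by the root of its F statistic, and log2 CPM used a prior count of 2. Transcript lengths and overlaps came from GENCODE on GRCm38, and promoters from RefSeq. Alternatives were other scalings and filters, DESeq2 1.42.0, limma-voom (limma 3.58.1), fewer libraries, Rn45s and Lars2 left out, and unscaled totals. The fit was tested on simulated data. Replicates within a diet differed by more than sampling noise. Genes were named by rule: the 6 lowest p per pairwise comparison, every called gene and those apart in the 3-group test, with the rest summarised (F2, Klkb1, Plg and C8g were added after their values were seen), and up to 2 genes per companion list. The 35 genes and the lists were chosen with earlier results of these data known.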

Additional observations from a re-analysis of the deposited data

How the results depend on the processing

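No paired analysis was run, because the diets share no replicate number in the titles and no label says which mice form a set. The median log2 fold change of the 35 genes kept its sign under all 20 alternatives for high against sufficient iron (-0.26 to -0.19) and for high against low iron (-0.47 to -0.31; -0.31 on unscaled totals, and -0.47 to -0.40 with 1 library left out). For low against sufficient iron it was 0.25 without low-iron replicate 1 and sufficient-iron replicate 6 together and -0.00865 on unscaled totals, where the median of all genes was -0.17, and 0.13 to 0.19 with 1 library left out.

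Counts of calls moved most, and the cause was not tested. Of the 35 genes, calls for high against sufficient iron (1 as reported) were 0 with upper-quartile scaling, 0 without Rn45s and Lars2, 0 on unscaled totals, 2 without low-iron replicate 1 and sufficient-iron replicate 6 together, 6 with DESeq2 and 0 to 3 with 1 library left out. Over all genes (28 as reported) they were 45 with no filter, 215 with DESeq2, 88 with limma-voom and quality weights, 63 without that pair and 0 to 56 with 1 library left out. For low against sufficient iron, DESeq2 called 8 of the 35 and 105 of all genes, both 0 as reported, leaving out that pair called 1 gene in all, and leaving out 1 library called 0 of the 35 and 0 to 1 of all genes. For high against low iron, calls among the 35 (1 as reported) were 18 with DESeq2, 21 with quality weights, 3 with the 6 libraries alone, 15 without that pair and 0 to 4 with 1 library left out, and over all genes (66 as reported) 365, 366, 288 without that pair and 0 to 112. In the 3-group test, calls among the 35 (1 as reported) were 0 with upper-quartile scaling, 0 with a filter at 1 CPM, 0 without Rn45s and Lars2, 0 on unscaled totals, 17 with DESeq2, 12 with quality weights, 9 without that pair and 0 to 4 with 1 library left out, and over all genes (28 as reported) 52 with no filter, 413, 228, 192 and 0 to 68. For the trend, calls among the 35 (1 as reported) were 17, 19, 13 and 0 to 3, and over all genes (40 as reported) 313, 282, 257 and 0 to 96, in the order DESeq2, quality weights, that pair left out and 1 library left out. The call of C8a was also lost with the 6 libraries alone (adjusted p = 0.0674), where C9 was called instead. The unscaled totals and the contrast of unequal steps were added after the data were seen.

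The smallest adjusted p among the 35 genes was 0.446 for low against sufficient iron. Low-iron replicate 1 and high-iron replicate 12 had fewer reads outside Rn45s than the other libraries.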

Other observations

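Low-iron replicate 1 differed from the other low-iron livers gene by gene. It lay below both of them for 23 of the 35 genes, above both for 11 and between them for 1, C4b. The 11 genes above both (C6, C8g, F10, F12, Kng1, Masp2, Mbl1, Proc, Serpinc1, Serpinf2 and Vtn) had a median transcript length of 1960 bases and the 23 below both one of 2641 bases. Across the 35 genes, the Spearman correlation of transcript length with log2 CPM minus the 9-library mean was -0.31 in low-iron replicate 1, -0.55 in high-iron replicate 8, 0.44 in sufficient-iron replicate 6, 0.34 in sufficient-iron replicate 10, 0.29 in high-iron replicate 12 and between -0.17 and 0.09 in the other 4 libraries. The genes of a library share its depth and preparation, and these values are a description.

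Some of the 35 genes are neighbours in the genome. F7, F10 and Proz lie next to each other on chromosome 8, with gaps of 1498 and 4237 bases. Their log2 fold changes of low against sufficient iron were 0.31 ± 0.14, 0.38 ± 0.11 and -0.05 ± 0.14 (SE), so that Proz stood apart from its neighbours in value, a difference that was not tested. F11 and Klkb1 are 4657 bases apart on the same chromosome, with 0.08 ± 0.17 and 0.27 ± 0.09.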
